A study of Mus musculus with 8 samples.

Results

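Spi1, Cebpa, Cebpb, Cebpd, Cebpe, Gfi1, Maf, Klf4 and Runx1 encode transcription factors of the myeloid lineage, and their RNA was compared across the cell populations and genotypes of mouse TAX-LUC tumors. The 9 genes were chosen by name among the 19938 genes that a probe set with 1 gene symbol represents on the array, and a gene with several probe sets was read from the probe set with the highest mean. Each gene had a probe set, and no filter on low values was applied. Tail tumors of 4 mice, 2 IL-15+/+ and 2 IL-15-/-, were sorted into CD16/32HI and CD16/32LO cells, and their RNA gave 8 arrays, 2 in each of 4 groups. All mice carried the TAX and LUC transgenes, in which the human granzyme B promoter drives the viral oncogene Tax and luciferase reports Tax activity, on a mixed C57BL/6 and FVB background. Mice of replicate 1 were 14 months old and mice of replicate 2 were 12 months old. The labels call the CD16/32HI cells malignant large granular lymphocytes and the CD16/32LO cells tumor infiltrating immune cells. Levels are deposited RMA values on the log2 scale, so a difference of 1 is a doubling, and values of different probe sets are not set against each other.

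Myeloid cells arise in the marrow through transcription factors that act in layers. PU.1, the product of Spi1, and Runx1 are needed early and remain active in mature granulocytes and macrophages. C/EBP alpha commits progenitors to the granulocyte and monocyte fates, C/EBP epsilon and Gfi1 carry neutrophils through late maturation and granule gene expression, and Klf4 and c-Maf act on the monocyte and macrophage side. C/EBP beta and C/EBP delta respond to inflammatory signals in both lineages. For the comparison Cebpa, which serves both fates, was listed with Cebpe and Gfi1 as granulocyte factors, and Maf and Klf4 were listed as macrophage factors, and Spi1, Runx1, Cebpb and Cebpd as shared factors.

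Before the factors are described, the arrays of 1 mouse need a remark. The mean of the neutrophil markers (Csf3r, Cxcr2, S100a8, S100a9, Retnlg, Mmp8 and Cxcr1) was 7.79 to 8.31 in the CD16/32HI arrays of 3 mice and 10.08 to 10.62 in their CD16/32LO arrays. The IL-15-/- mouse of replicate 1 had 10.63 in its CD16/32HI and 8.47 in its CD16/32LO array. The mean of the macrophage markers (C1qa, C1qb, C1qc, Mrc1, Csf1r, Adgre1, Cd68 and Fcgr1) was 10.09 to 10.79 in CD16/32HI and 8.63 to 8.71 in CD16/32LO arrays of the same 3 mice, against 8.52 and 10.53 in that mouse. This mouse therefore ran against its population labels. The labels were kept as deposited, and the comparisons that include the mouse are given with and without it. As to the label of lymphocytes, 0 of 5 T cell and 0 of 5 NK cell markers were called higher in the CD16/32HI cells of IL-15+/+ mice. Of all probe sets, 1013 of 21789 were called higher, so 0 of 5 is near that share. The mean was lower in CD16/32HI for 4 T cell and 5 NK cell markers and higher for Cd4 (6.09 against 5.55). Klrd1, an NK cell receptor gene, measured 7.76 and 7.87 in the CD16/32HI and 8.72 and 9.37 in the CD16/32LO cells of these mice. Il15, the deleted gene, did not separate the genotypes: it measured 5.40 and 5.18 in the CD16/32HI and 6.42 and 6.88 in the CD16/32LO IL-15+/+ arrays, and 6.31 and 5.22 in the CD16/32HI and 5.45 and 6.54 in the CD16/32LO IL-15-/- arrays. Its probe set holds probes outside the deleted exons and so does not check the labels.

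Promoters are shown for Cebpa, Klf4 and Runx1, the members with the largest population differences among those matched to a RefSeq promoter. Of the 9 genes 5 matched (Cebpa, Gfi1, Klf4, Runx1 and Cebpb), and Cebpe, Maf, Spi1 and Cebpd did not. Each sequence is the 250 bases before the most upstream RefSeq start in GRCm38.p6, written 5′ to 3′ on the strand of the gene, with capitals for matches to the motifs searched.
Cebpa promoter, chr7:35119043-35119292, plus strand: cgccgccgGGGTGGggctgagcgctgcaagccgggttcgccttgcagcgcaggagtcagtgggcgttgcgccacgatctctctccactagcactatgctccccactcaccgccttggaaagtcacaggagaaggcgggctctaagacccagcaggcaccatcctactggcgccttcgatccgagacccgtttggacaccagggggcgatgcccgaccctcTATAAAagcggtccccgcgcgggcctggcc
Klf4 promoter, chr4:55532476-55532725, minus strand: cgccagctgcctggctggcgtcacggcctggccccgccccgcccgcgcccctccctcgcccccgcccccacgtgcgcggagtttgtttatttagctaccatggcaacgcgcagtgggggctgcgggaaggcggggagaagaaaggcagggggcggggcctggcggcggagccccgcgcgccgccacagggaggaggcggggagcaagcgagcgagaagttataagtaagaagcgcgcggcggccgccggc
Runx1 promoter, chr16:92826075-92826324, minus strand: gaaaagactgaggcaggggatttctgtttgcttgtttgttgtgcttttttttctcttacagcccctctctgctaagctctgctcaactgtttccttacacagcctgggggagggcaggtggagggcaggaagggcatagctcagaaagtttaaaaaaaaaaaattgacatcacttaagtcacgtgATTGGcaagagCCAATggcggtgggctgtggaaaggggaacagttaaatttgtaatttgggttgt
On both strands 8 motifs were searched: GAGGAA for PU.1, TTGCNNAA for C/EBP, TGTGGT for Runx, GGGTGG for KLF, TGCTGAC for Maf, AAATCA for Gfi1, the TATA box TATAAA and the CCAAT box. The Cebpa window held 1 KLF match and 1 TATA box, found in 28.08% and 12.37% of 32851 promoters of the same length. The Runx1 window held 2 CCAAT boxes, 1 on each strand, and 33.85% of promoters held at least 1. The Klf4 window held no match. A C/EBP match (9.56% of promoters) stood in 1 of the 5 windows, that of Gfi1, and a KLF match in 3 (Cebpa, Gfi1 and Cebpb). PU.1, Runx, Maf and Gfi1 motifs (23.25%, 14.05%, 3.81% and 12.43% of promoters) were in 0 of the 5. A match is a run of letters and not a bound site.

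Of the genes listed as granulocyte factors Cebpa was 2.92-fold higher and Cebpe 2.75-fold lower in CD16/32HI than CD16/32LO cells of IL-15+/+ mice, while Gfi1 did not pass the test. Cebpa, which opens the granulocyte and monocyte program, measured 8.62 in replicate 1 and 8.94 in replicate 2 of IL-15+/+ CD16/32HI cells, and 7.28 and 7.19 in the CD16/32LO arrays of these mice (values are given in this order throughout). In IL-15-/- mice it measured 6.87 and 8.81 in the CD16/32HI and 8.49 and 6.89 in the CD16/32LO arrays. Thus 4 arrays lay between 8.49 and 8.94 and the others between 6.87 and 7.28, with the IL-15-/- mouse of replicate 1 on the opposite side to its labels. The 4 higher arrays are those with a macrophage marker mean of 10.09 to 10.79. The IL-15+/+ difference was 1.55 ± 0.197 on the log2 scale (SE, n = 2 mice, limma adjusted p = 0.000826, 95% confidence interval 1.11 to 1.98).

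Cebpe, which switches on the secondary granule genes, was arranged the other way. It measured 6.46 and 6.01 in the CD16/32HI and 7.30 and 8.10 in the CD16/32LO IL-15+/+ arrays, and 7.32 and 6.29 in the CD16/32HI and 6.54 and 7.44 in the CD16/32LO IL-15-/- arrays. The 4 arrays with the higher Cebpa values were those with the lower Cebpe values, as the plot of one gene against the other shows. Its difference in IL-15+/+ mice was -1.46 ± 0.269 (adjusted p = 0.00653), and it was unequal between them, -0.84 in replicate 1 and -2.08 in replicate 2. Gfi1, a zinc finger repressor that acts in late neutrophil maturation, measured 6.22 and 5.42 in the CD16/32HI and 6.0 and 5.84 in the CD16/32LO IL-15+/+ arrays. In IL-15-/- mice its values were 6.31 and 5.39 in the CD16/32HI and 6.22 and 5.62 in the CD16/32LO. Gfi1 was higher in replicate 1 than in replicate 2 in each of the 4 groups, and the replicates also differ in age and in the set of arrays normalized together. Its population difference was -0.10 (confidence interval -0.57 to 0.37, adjusted p = 0.823).

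**Figure D1:**
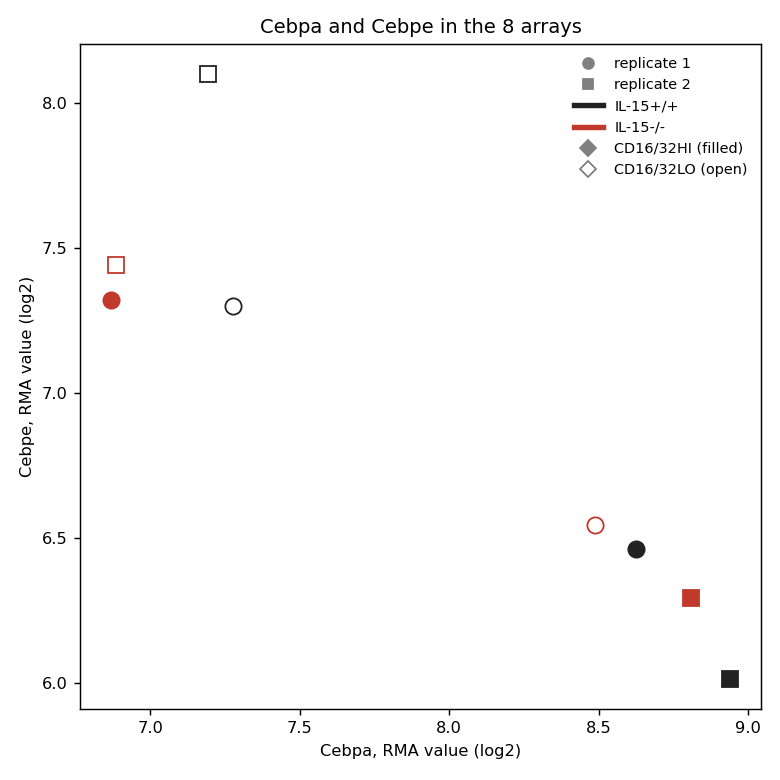
RMA value of Cebpa (horizontal axis, log2) against that of Cebpe (vertical axis, log2) in each of the 8 arrays. Filled points are CD16/32HI and open points CD16/32LO arrays, circles replicate 1 and squares replicate 2, black IL-15+/+ and red IL-15-/-. In 4 arrays Cebpa is at 8.49 or above and Cebpe at 6.54 or below, and the open red circle and the filled red circle, both of the IL-15-/- mouse of replicate 1, lie apart from the other arrays of their label.

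The macrophage factors both had a higher mean in CD16/32HI cells of IL-15+/+ mice, and 1 of the 2, Klf4, passed the test. Klf4, a zinc finger factor of monocyte differentiation, measured 7.23 and 7.19 in the CD16/32HI and 5.89 and 6.18 in the CD16/32LO IL-15+/+ arrays. In IL-15-/- mice the values were 6.12 and 6.62 in the CD16/32HI and 6.23 and 6.17 in the CD16/32LO arrays. The IL-15+/+ CD16/32HI arrays were thus the highest of the 8, and the other 6 lay between 5.89 and 6.62. The IL-15+/+ difference was 1.18 ± 0.195 (2.26-fold, adjusted p = 0.00361). Maf, a leucine zipper factor of macrophages and of interleukin-10 producing cells, measured 7.19 and 6.91 in the CD16/32HI and 6.57 and 6.49 in the CD16/32LO IL-15+/+ arrays. Its IL-15-/- values were 6.50 and 7.91 in the CD16/32HI and 7.14 and 6.66 in the CD16/32LO. The Maf difference in IL-15+/+ mice, 0.52 ± 0.190, was positive in both mice and had an adjusted p of 0.121, which became 0.045 after quantile normalization (0.045 to 0.454 over 5 alternatives that keep both mice).

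Among the shared factors all 4 had a lower mean in the CD16/32HI cells of IL-15+/+ mice, and Runx1 and Cebpd passed the test. Runx1, which establishes definitive blood cell formation, measured 8.30 and 8.20 in the CD16/32HI and 9.10 and 9.23 in the CD16/32LO IL-15+/+ arrays, a difference of -0.92 ± 0.191 (1.89-fold lower, adjusted p = 0.0123). In IL-15-/- mice it measured 9.30 and 8.57 in the CD16/32HI and 8.36 and 9.59 in the CD16/32LO. Cebpd, an inflammation-induced member of the family, measured 7.62 and 7.55 in the CD16/32HI and 8.29 and 8.30 in the CD16/32LO IL-15+/+ arrays. Its IL-15-/- values were 8.50 and 7.81 in the CD16/32HI and 7.47 and 8.85 in the CD16/32LO. The IL-15+/+ difference of Cebpd was -0.71 ± 0.188 (adjusted p = 0.0375). For both genes the IL-15-/- mouse of replicate 1 had the higher value in its CD16/32HI array and the other 3 mice in their CD16/32LO arrays.

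Cebpb and Spi1 stood closer together between the populations. Cebpb, which drives granulocyte output under inflammation and macrophage activation, measured 7.42 and 7.29 in the CD16/32HI and 7.86 and 7.69 in the CD16/32LO IL-15+/+ arrays, and 7.73 and 7.20 against 7.40 and 7.62 in IL-15-/- mice. Its IL-15+/+ difference was -0.42 (confidence interval -0.84 to -0.01, adjusted p = 0.204). Spi1 measured 8.65 and 8.76 in the CD16/32HI and 8.74 and 9.0 in the CD16/32LO IL-15+/+ arrays. In IL-15-/- mice it measured 8.98 and 9.36 in the CD16/32HI and 8.87 and 9.60 in the CD16/32LO. The IL-15+/+ difference of Spi1 was -0.16 (confidence interval -0.58 to 0.26, adjusted p = 0.664), and the gene stood at the 88.5th to 92.3rd percentile of all probe sets in every array.

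**Figure D2:**
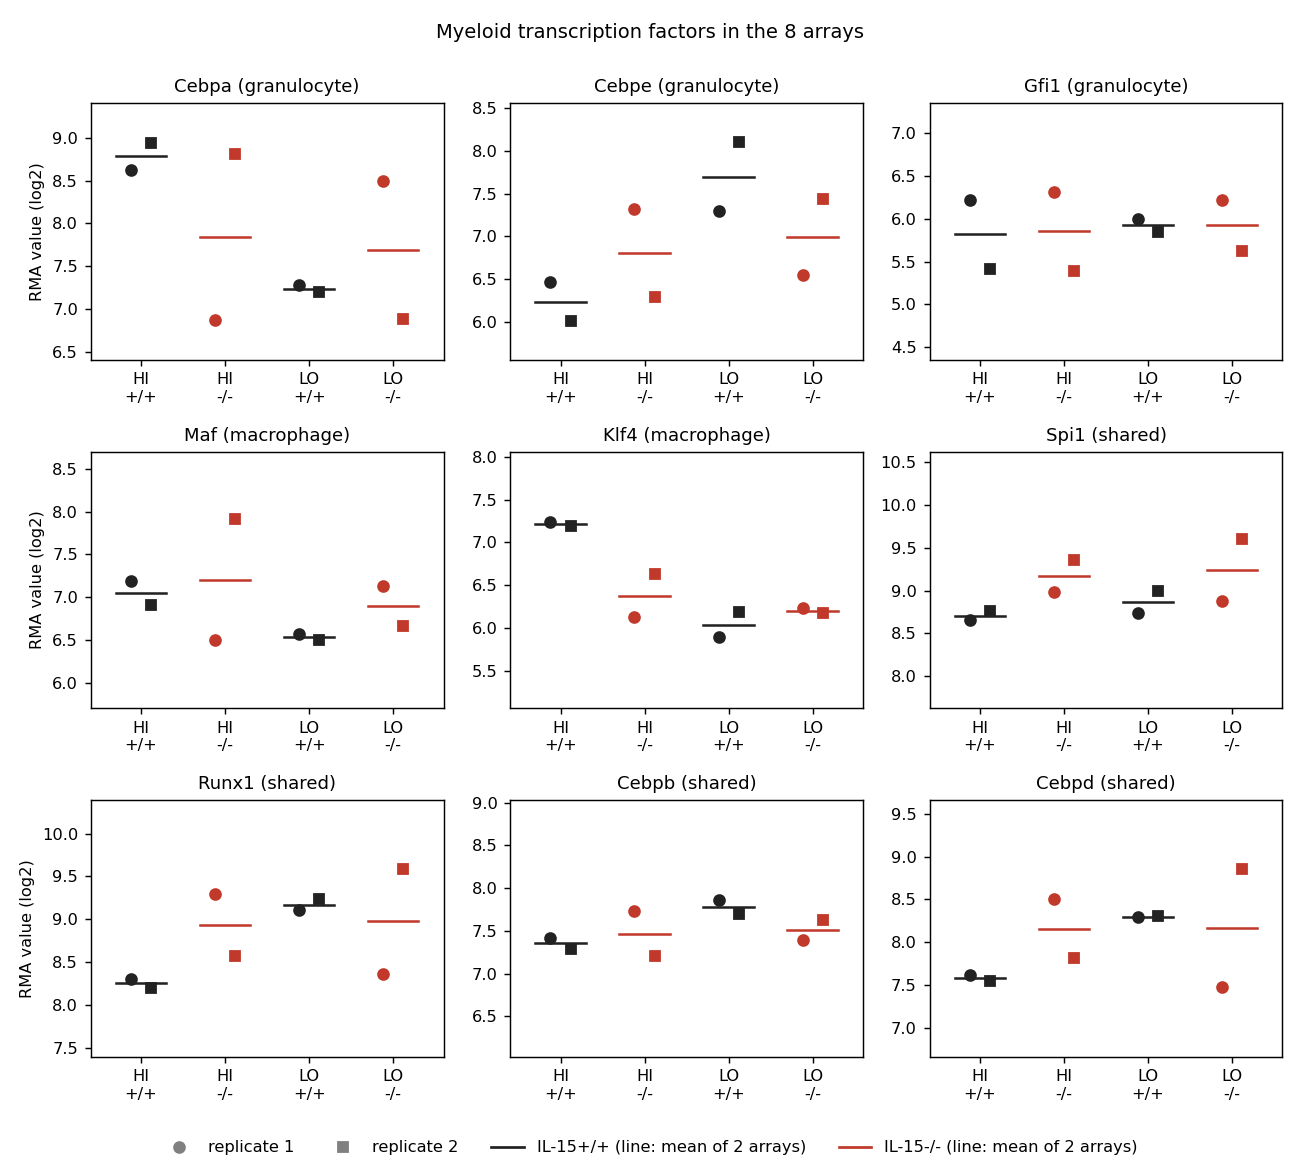
RMA value (vertical axis, log2) of each of the 9 factors in the 4 groups, as a circle (replicate 1) and a square (replicate 2), with a line at the mean of the 2 arrays. Every panel spans 3 log2 units. All factors but Gfi1 and Spi1 separate the black CD16/32HI from the black CD16/32LO points, Maf and Cebpb by less than the others. The red points of Cebpa, Runx1 and Cebpd are spread widely within each population.

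In all, 5 of the 9 factors passed the test between populations in IL-15+/+ mice (2 higher, 3 lower in CD16/32HI), where 10.2% of the 21789 probe sets tested did. The 2 CD16/32HI arrays did not overlap with the 2 CD16/32LO arrays for 7 of the 9, all but Gfi1 and Spi1, as for 41.1% of all probe sets. Each call rests on 2 mice with 1 residual degree of freedom and on a spread shared across probe sets: no factor, and 0 of all probe sets, was called when the 35557 probe sets of the table were tested together (adjusted p 0.0823 for Cebpa to 0.176 for Cebpd among the 5). With either IL-15+/+ mouse left out, the difference is that of the other mouse alone (1.35 to 1.74 for Cebpa). The spread then comes from the 2 IL-15-/- mice, of which 1 ran against its labels, so that fit cannot check the calls. Without mouse as a block 611 of 21789 probe sets were called, with Cebpa, Cebpe and Klf4 among them and not Runx1 and Cebpd (adjusted p = 0.102 and 0.22). Centred on array medians or quantile normalized, Cebpd had adjusted p = 0.0508 and 0.0619. Over the 5 alternatives that keep both mice, adjusted p ranged from 6.15e-06 to 0.0823 for Cebpa, 0.000302 to 0.152 for Cebpe, 0.000134 to 0.1 for Klf4, 0.0102 to 0.13 for Runx1 and 0.0279 to 0.22 for Cebpd.

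Markers of whole cell types differed between the same arrays. In IL-15+/+ mice 5 of 7 neutrophil markers were lower and 7 of 8 macrophage markers were higher in CD16/32HI, and 3 of 5 T cell, 3 of 5 NK cell and 2 of 2 measured B cell markers were lower. None of 3 keratinocyte markers was called. The mean of the T cell markers was 6.56 and 5.96 in CD16/32HI against 7.65 and 7.44 in CD16/32LO, and that of the NK cell markers 6.18 and 5.90 against 7.53 and 7.28. Their part in the differences of the factors was not tested, and in bulk RNA fewer cells of a type and less RNA per cell cannot be told apart.

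Over all 4 mice as labelled, 0 of the 9 factors and 0% of probe sets were called by limma, and 1 factor, Klf4, had an unadjusted p under 0.05 (0.67, adjusted p = 0.92), as had 257 of 21789 probe sets. The difference within the IL-15-/- mouse of replicate 1 had the opposite sign to that of the other 3 mice for 8 of the 9 factors, Gfi1 being the exception. Cebpa was higher in CD16/32HI by 1.35, 1.74 and 1.92 in the other 3 mice and differed by -1.62 in this mouse. Runx1 differed by -0.80, -1.03 and -1.02 in the 3 mice and by 0.94 in this mouse, and Cebpd by -0.68, -0.75 and -1.04 and by 1.03. Without this mouse 6 factors were called, against 14.3% of probe sets. These were Cebpa (1.67 ± 0.158, adjusted p = 0.000225), Klf4 (0.94 ± 0.183, adjusted p = 0.00879) and Maf (0.76 ± 0.180, adjusted p = 0.021), which were higher in CD16/32HI, and Cebpe (-1.36), Runx1 (-0.95) and Cebpd (-0.82), which were lower. The 2 IL-15+/+ mice are common to this and the preceding comparison. The mouse left out was singled out by markers measured in these same arrays, so the count without it is not an independent check of the calls.

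**Figure D3:**
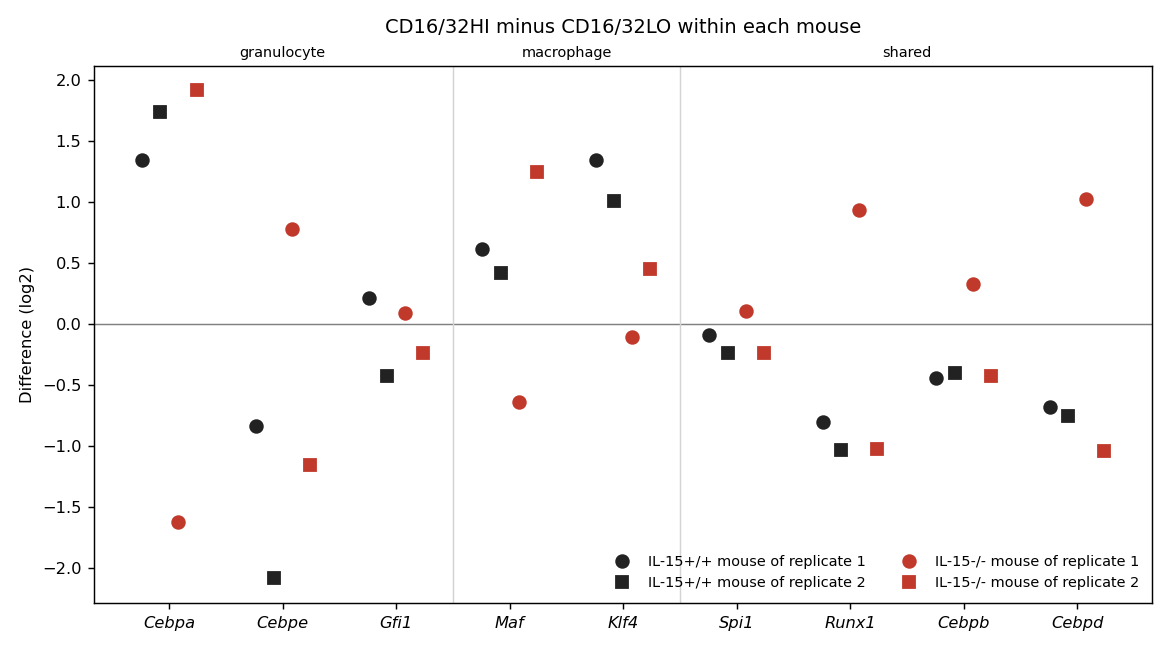
Difference of CD16/32HI minus CD16/32LO (vertical axis, log2) within each of the 4 mice for the 9 factors, ordered by role. Black points are IL-15+/+ and red points IL-15-/- mice, circles replicate 1 and squares replicate 2. The red circles lie on the other side of 0 from the remaining points for every factor except Gfi1, with Cebpa at -1.62 against 1.35 to 1.92.

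Set side by side, the factors assigned to granulocytes held 1 gene higher (Cebpa) and 1 lower (Cebpe) in the CD16/32HI cells of IL-15+/+ mice, and those assigned to macrophages 1 higher (Klf4) of 2. The medians of their population differences were -0.10 for the granulocyte, 0.85 for the macrophage and -0.57 for the shared factors, and 0.04 over all probe sets. As Cebpa serves both lineages, these medians depend on where it is listed. Of 11 other monocyte and macrophage factors 3 were higher in CD16/32HI, namely Spic (1.82), Zeb2 (1.82) and Tfec (1.43), and 2 were lower, the immediate early factors Egr2 (-0.75) and Nr4a1 (-0.89). Irf8, which directs monocyte and dendritic cell fates, measured 7.45 and 7.60 in the CD16/32HI and 6.38 and 7.18 in the CD16/32LO and was not called. Of 8 other granulocyte and progenitor factors 0 were higher and 2 were lower, the retinoic acid receptor gene Rara (-0.92) and Stat3 (-1.04), which relays the G-CSF signal.

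Partners and relatives of the 9 factors were mixed. Of 11 genes Fosb (0.89), an AP-1 subunit, was higher, and Irf1 (-1.41) and the ETS factor Fli1 (-0.75) were lower. Cbfb, the obligate partner of Runx1, measured 9.31 and 9.49 in the CD16/32HI and 9.31 and 9.43 in the CD16/32LO IL-15+/+ arrays. Of 11 lymphocyte factors 4 were lower and 0 higher: Satb1 (-2.38), Ebf1 (-2.20), Ets1 (-1.28) and Tox (-0.73).

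**Figure D4:**
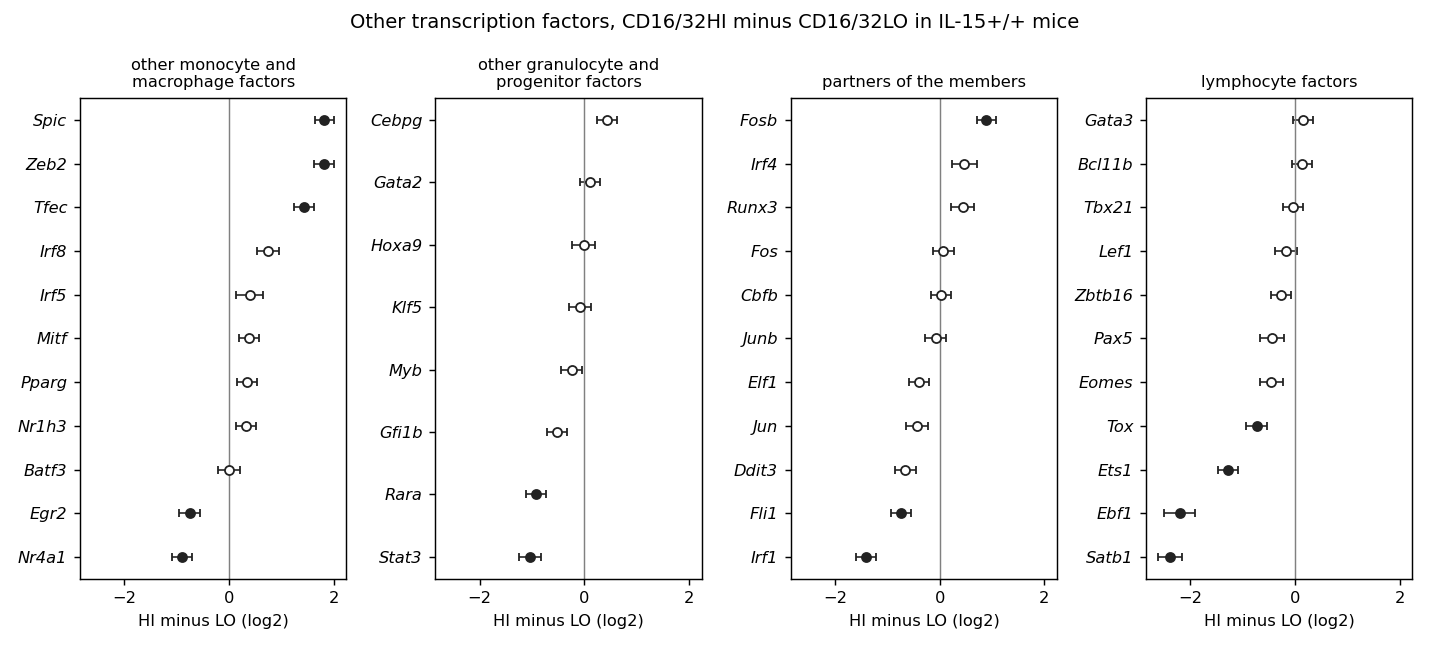
Difference of CD16/32HI minus CD16/32LO in IL-15+/+ mice (horizontal axis, log2, with standard error, n = 2 mice) for 4 lists of other transcription factors. Filled points had an adjusted p under 0.05, and open points did not. Spic, Zeb2 and Tfec are the filled points to the right among monocyte and macrophage factors, and the 4 filled lymphocyte factors are all to the left.

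Genes known as targets of the factors were read in the same comparison. Of 6 genes activated by C/EBP epsilon 3 were lower in CD16/32HI, the granule protein genes Ngp (-4.15), Lcn2 (-3.85) and Ltf (-1.38), and 0 were higher. Ngp measured 5.13 and 6.23 in the CD16/32HI and 8.70 and 10.97 in the CD16/32LO arrays of IL-15+/+ mice, and Cebpe was also at its highest in the array with 10.97. Of 4 targets of C/EBP alpha Csf3r, the G-CSF receptor gene, was lower (-2.98) where Cebpa was higher. Mpo, the myeloperoxidase gene of granulocyte precursors, was higher (0.88), and Elane and Prtn3 were not called. Mpo measured 6.19 and 6.18 in the CD16/32HI and 5.78 and 4.84 in the CD16/32LO IL-15+/+ arrays. Its IL-15-/- values were 5.98 and 5.35 in the CD16/32HI and 5.75 and 5.62 in the CD16/32LO. Over all mice without the IL-15-/- mouse of replicate 1, 0 of the 4 were called higher. By their means Mpo, Elane and Prtn3 stood at the 43.7th, 41.9th and 36.8th percentile of probe sets. Of 6 targets of PU.1 4 were higher (Msr1 2.24, Fcgr1 1.97, Cd68 0.97 and Csf1r 0.87) and Itgam was lower (-1.95), while Spi1 itself was not called. Of 6 targets of c-Maf the complement genes C1qa (2.38), C1qb (2.08) and C1qc (2.12) were higher. Il10 measured 4.40 and 5.06 in the CD16/32HI and 4.52 and 4.22 in the CD16/32LO and was not called, nor were Cd163 and Il4. By their means Il10, Cd163 and Il4 stood at the 18.6th, 24.6th and 20th percentile of probe sets. At such low levels a change may not show. Several of these genes are also in the neutrophil and macrophage marker lists above.

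The study asked what loss of IL-15 changes in each population, and for these factors no genotype difference was called. In CD16/32HI cells 0 of 9 passed the limma test, against 0.0229% of probe sets (0.0413% without the IL-15-/- mouse of replicate 1). In CD16/32LO cells it was 0 of 9, against 0.0367% (0.119% without that mouse). At an unadjusted p under 0.05 there was 1 factor in CD16/32HI, Klf4, with 1070 of 21789 probe sets, and 0 in CD16/32LO, with 417. The methods' comparison is a one-way test within each population with a filter of over 3-fold, and no p threshold is named. Over 3-fold were 0 of the 9 factors, with 76 probe sets in CD16/32HI and 80 in CD16/32LO. With an unadjusted p under 0.05 of that test as well, it was 0 of the 9, with 10 and 17 probe sets. The medians over all probe sets differed by 0.09 in CD16/32HI and 0.13 in CD16/32LO in favor of IL-15-/-, so differences of this size are not particular to a gene. Without the IL-15-/- mouse of replicate 1 that genotype is 1 mouse, whose arrays were normalized apart from all IL-15+/+ arrays. Genotype differences without the mouse of replicate 1 are therefore given as sizes only, and genotype and normalization set cannot be told apart in them.

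Klf4 was lower in IL-15-/- CD16/32HI cells in both replicates, with differences of -1.11 in replicate 1 and -0.57 in replicate 2. The mean difference was -0.84 ± 0.249 (confidence interval -1.40 to -0.27, limma adjusted p = 0.854), and -0.59 when the IL-15-/- mouse of replicate 1 was left out. Replicate 1 holds the arrays normalized together, and its CD16/32HI array of the IL-15-/- mouse is the array that ran against its label. In CD16/32LO cells Klf4 differed by 0.16 (confidence interval -0.40 to 0.73), or 0.14 without the mouse. Spi1 had higher values in IL-15-/- mice in both replicates of both populations, by 0.33 and 0.60 in the CD16/32HI and by 0.13 and 0.60 in the CD16/32LO cells. Its mean differences, 0.46 ± 0.292 and 0.36 ± 0.292, did not pass (limma adjusted p = 0.854 and 0.9999), and were 0.65 and 0.73 without the mouse. In replicate 2, where the genotypes were normalized apart, whole-array medians were also higher in IL-15-/- arrays. They were 5.86 against 5.62 in CD16/32HI and 5.93 against 5.65 in CD16/32LO. The mean differences of Spi1 were 0.33 and 0.25 with median centring, and 0.20 and 0.24 with quantile normalization.

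The remaining factors differed in opposite directions between replicates or populations. Cebpa differed between genotypes in CD16/32HI by -1.75 in replicate 1 and -0.13 in replicate 2, and in CD16/32LO by 1.21 and -0.31. Without the IL-15-/- mouse of replicate 1 its differences were 0.03 and -0.35. Cebpe differed by 0.86 and 0.28 in the CD16/32HI cells and by -0.76 and -0.66 in CD16/32LO, with means of 0.57 and -0.71 and intervals that held 0. Without the mouse these means were 0.05 and -0.26. Maf differed by -0.69 and 1.0 in the CD16/32HI cells and by 0.57 and 0.17 in CD16/32LO. Without the mouse its mean difference went from 0.16 to 0.86 in CD16/32HI and from 0.37 to 0.13 in CD16/32LO. Runx1, Cebpd and Cebpb had mean differences of 0.68, 0.58 and 0.11 in the CD16/32HI cells, and of -0.19, -0.14 and -0.27 in the CD16/32LO cells. Without the mouse they were 0.32, 0.23 and -0.15 in the CD16/32HI cells and 0.42, 0.55 and -0.15 in the CD16/32LO cells, so the sign turned for Cebpb in the former and for Runx1 and Cebpd in the latter. For Gfi1 they were 0.03 and 0.00, and without the mouse -0.43 and -0.30.

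The genotypes did not overlap for 4 of the 9 factors in CD16/32HI (Klf4 lower, and Spi1, Runx1 and Cebpd higher in IL-15-/-), as for 34.4% of probe sets. Of these probe sets 5242 were higher and 2261 lower in IL-15-/-. In CD16/32LO the genotypes did not overlap for 2 factors (Maf higher and Cebpb lower), as for 28.9% of probe sets (5268 higher and 1025 lower). The macrophage marker mean was 10.50 and 10.09 in IL-15+/+ CD16/32HI arrays and 8.52 and 10.79 in IL-15-/- ones, and the neutrophil marker mean 8.31 and 8.10 against 10.63 and 7.79. Their part in the genotype differences was not tested.

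**Figure D5:**
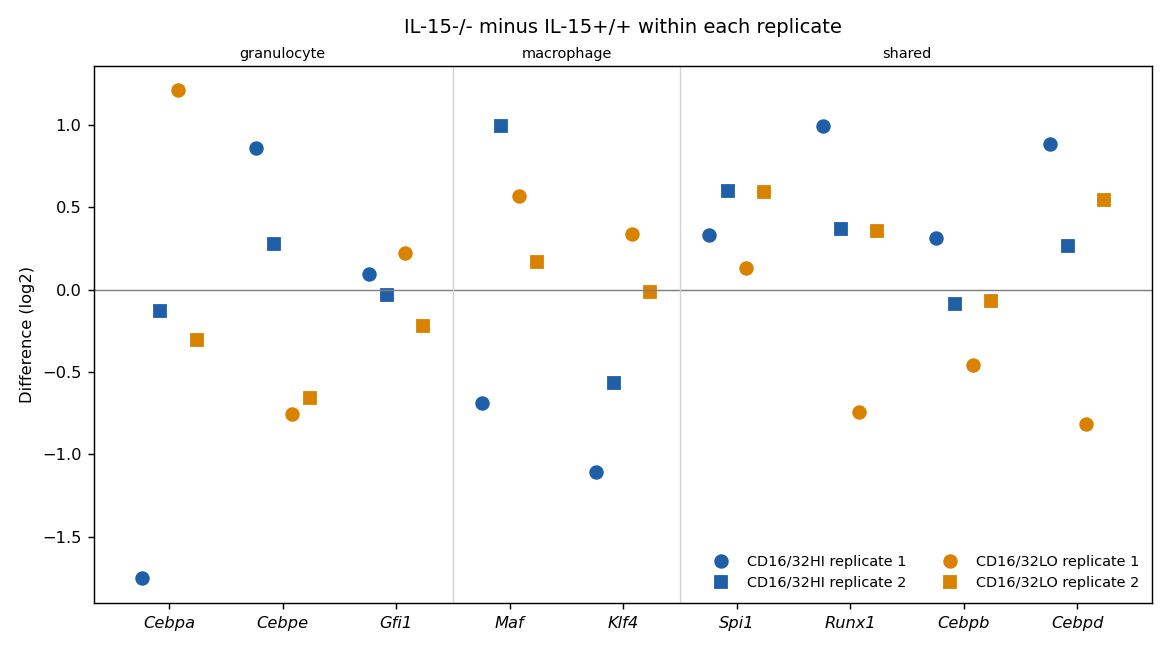
Difference of IL-15-/- minus IL-15+/+ (vertical axis, log2) within each replicate for the 9 factors, in blue for CD16/32HI and orange for CD16/32LO cells, circles for replicate 1 and squares for replicate 2. The blue points of Klf4 are at -1.11 and -0.57, all 4 points of Spi1 are above 0, and the points of Cebpa range from -1.75 to 1.21.

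Whether the population difference itself depended on genotype was tested as an interaction with mouse as a block. None of the 9 factors was called by limma, with 0% of probe sets, and Klf4 was the 1 factor with an unadjusted p under 0.05 (-1.0, adjusted p = 0.878), as had 578 of 21789 probe sets. With a mouse of IL-15-/- left out, that genotype is 1 mouse, and the 1 residual degree of freedom comes from the IL-15+/+ mice, so the lone mouse is assumed to vary as they do. Without the IL-15-/- mouse of replicate 1, 0 factors and 0% were called again. The terms of Cebpa, Maf, Runx1, Cebpd, Gfi1 and Spi1 turned sign, from -1.40, -0.21, 0.88, 0.71, 0.03 and 0.10 to 0.37, 0.73, -0.10, -0.32, -0.13 and -0.07. Those of Klf4, Cebpe and Cebpb went to -0.72, 0.31 and 0.0009, from 1.28 for Cebpe and 0.38 for Cebpb. Without the other IL-15-/- mouse 6 factors and 2831 of 21789 probe sets were called, in a fit where that genotype is the mouse that ran against its labels.

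Likeness over the 8 arrays is given as a description: arrays of 1 mouse share tissue and normalization, and the 3 nearest genes were read from 19937 others for each factor. Cebpa ran most like Pgm2l1 (Pearson r = 0.990), Spag5 and Aif1, a gene of macrophages and microglia. Cebpe ran most like Nfe2 (r = 0.984), a leucine zipper factor gene, followed by Il15 and Abcd2. Il15 is the gene deleted in IL-15-/- mice, and its probe set holds probes outside the deleted exons. Maf was nearest to Nrip1 (r = 0.994), a nuclear receptor corepressor gene, and Klf4 to Zfp703 (r = 0.971). For Runx1 it was Ccndbp1 (r = 0.998), for Cebpd Usp38 (r = 0.995), for Cebpb Rnf144a (r = 0.985), for Spi1 C1s2 (r = 0.983) and for Gfi1 Syt5 (r = 0.980).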

How the data were processed

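RNA of cells sorted by CD16/32 was hybridised to Affymetrix Gene Chip Whole Transcript 1.0ST arrays. Per the labels and the methods, the authors made log2 signals per probe set with RMA in Affymetrix Expression Console (versions not given in the sources used here). The deposited table holds these log2 values for 35557 probe sets in 8 arrays. Of these, 21789 have exactly 1 gene symbol in the platform annotation and were tested, 1621 have several and 12147 have none listed.

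Genotypes were compared within populations in a model of 4 group means, and populations with mouse as a block, with limma 3.58.1 in R 4.3.3 and Benjamini-Hochberg adjustment over all probe sets tested (threshold 0.05). Confidence intervals are 95% intervals of the fit. The fits were run on simulated data with noise of the same size for every probe set. The simulated genotype comparisons held no mouse effect, so they do not check the genotype p-values. The 4 mice are separate animals. The genotype fit has no mouse term, so both arrays of a mouse count as independent in its spread (4 residual degrees of freedom). The population fit in IL-15+/+ mice has 1 residual degree of freedom and draws most of its spread from other probe sets. Neither p-value is a plain measure of the spread between mice. The number of arrays limits the precision.

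Exactly equal values (11 to 106 a pair within, 0 between) showed 3 sets of arrays normalized together: the 4 arrays of replicate 1, the IL-15+/+ arrays of replicate 2 and the IL-15-/- arrays of replicate 2. Genotype and set cannot be told apart in replicate 2. Both populations of a mouse come from 1 tumor. Arrays were paired by the replicate number within a genotype, on the assumption that the same number stands for the same mouse. Deviations from the group means correlated at 0.361 between the populations of IL-15+/+ mice and at -0.458 between those of IL-15-/- mice.

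The 9 factors, all named, the other gene lists and the role groups were chosen with earlier results of these data known. Other genes were named from these lists, or as the 3 most like a factor by Pearson r. Alternatives were median centring, quantile normalization, all probe sets, probe sets at or above the median level, blocks by replicate or normalization set, no block, and leaving out arrays or mice. Promoter sequences are from RefSeq.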

Additional observations from a re-analysis of the deposited data

How the results depend on the processing

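Counts of called factors between genotypes remained at 0 under every alternative run, including the replicate block (0 factors in each population). Across genotypes a replicate number stands for different mice of 1 age, and deviations of same-numbered arrays correlated at 0.056 within CD16/32HI, 0.134 within CD16/32LO, and 0.143 and 0.189 between unlike populations. Between populations in IL-15+/+ mice the count was 5 (with 2217 of 21789 probe sets). It became 0 with all probe sets (0 of 35557), where the prior degrees of freedom went from 9.414 to 3.536. With no replicate block it was 3 (611 of 21789). Leaving out an IL-15+/+ mouse takes the spread from the IL-15-/- mice, 1 of which ran against its labels, so no count is read there. In all mice and for the interaction, leaving out a mouse gave 0 to 6 called factors, the 6 beside 3114 and 2831 of 21789 probe sets. Crossing the IL-15-/- arrays between mice, chosen after seeing the data, called 0 factors in either comparison and 0 and 236 probe sets. Single differences changed sign, none of them past the threshold in the fit as reported. Genotype differences in CD16/32HI became -0.10 for Gfi1 and -0.0214 for Cebpb with median centring, and -0.0907, -0.12 and -0.10 for Gfi1, Cebpb and Maf with quantile normalization, and Maf -0.16 with the normalization set as a block. In CD16/32LO Gfi1 became -0.12 and -0.10 with these 2 scalings, and the interaction of Spi1 -0.0407 with quantile normalization. Leaving out arrays or mice gave genotype differences in CD16/32HI of -1.91 to 0.0263 (Cebpa), -0.43 to 0.50 (Gfi1), -0.15 to 0.38 (Cebpb) and -0.55 to 0.86 (Maf). In CD16/32LO they were -0.35 to 1.25 (Cebpa), -0.30 to 0.30 (Gfi1), -0.81 to 0.42 (Runx1) and -0.82 to 0.55 (Cebpd). The population difference of Gfi1 was -0.43 to 0.22 in IL-15+/+ and -0.19 to 0.025 in all mice. Interactions were -3.17 to 0.37 (Cebpa), -0.29 to 0.35 (Gfi1), -1.16 to 0.73 (Maf), -0.0716 to 0.27 (Spi1), -0.10 to 1.85 (Runx1) and -0.32 to 1.74 (Cebpd). For changes with scaling or block the cause was not tested. Gfi1 lay below the median level of the probe sets and was not tested among those at or above it.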
